A study of Mus musculus with 10 samples.

Results

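Semaphorins, plexins, ephrins, Eph receptors, Slits, Robos, netrins and Unc5 receptors were read from the RNA sequencing of sorted meningeal lymphatic endothelial cells (LECs) of female mice. They were taken by a pattern on the gene symbol, and 71 of the 55401 genes in the deposited count table matched: 66 are genes of these families, 2 are the plexin domain proteins Plxdc1 and Plxdc2, and 3 are RNAs on the strand opposite Plxna4. The cells were sorted as CD45-CD31+podoplanin+ from the skullcap meninges of C57BL/6 mice 3 months old (wild-type C57BL/6J in the study's methods). Naive mice were not stressed, and the other mice underwent sub-chronic variable stress (SCVS), in which foot-shock, tail suspension and restraint alternated over 6 days. Each group had 5 replicates, and each replicate pooled the cells of 3 to 4 animals, so that no value belongs to a single mouse. The digestion of every sample contained actinomycin D, which blocks transcription.

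These families steer growing axons and growing vessels with the same molecules. Semaphorins are ligands of plexins, and the secreted class 3 semaphorins usually need a neuropilin as co-receptor. Ephrins are ligands held on the cell surface, so that Eph receptors and ephrins signal into both cells at a contact, while Slits and netrins are secreted and act through Robo and Unc5 receptors. In vessels, Efnb2 and its receptor Ephb4 are known for separating arteries from veins and for lymphatic remodeling, class 3 semaphorins for the shaping of lymphatic valves, Plxnd1 and Unc5b for the control of sprouting, and Robo4 as a receptor found almost only in endothelium.

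Total counts per replicate lay between 9984743 and 14094155, so that 3 counts, used as the floor of detection, corresponded to 0.213 to 0.3005 CPM (counts scaled to a library total of 1000000). This floor covers counting error only, because the RNA was amplified and the reads carry no molecular identifiers. The sorted cells were checked with marker lists summed in CPM. Blood endothelial markers summed to more than lymphatic endothelial markers in each of the 10 libraries, with 313 to 10273 against 74.4 to 2929 CPM in naive mice and 5219 to 9324 against 471 to 3243 CPM in SCVS mice. By the mean log2(CPM + 1) of each list, naive replicate 5 alone went the other way, with 3.19 for lymphatic and 2.41 for blood endothelial markers. It had 7 of 9 lymphatic and 3 of 8 blood endothelial markers above the floor. Naive replicate 1 had 0 counts of Prox1 and Pdpn and 2 of Lyve1, which define LECs. It had 5 of the 9 lymphatic markers above the floor, among them Flt4 (376 counts) and Mmrn1 (165 counts). Low counts were also present elsewhere, with 1 of Lyve1 in naive replicate 5 and 2 of Prox1 in SCVS replicate 5. Naive replicate 5 had the lowest blood endothelial sum (313 CPM) and the highest neuronal and glial sum (3524 CPM, against 165 to 935 CPM in the other naive replicates). Markers of endothelium of every kind (pan-endothelial) summed to 610 CPM in this library. They summed to 5211 to 7701 CPM in the other naive replicates and 4125 to 7362 CPM in SCVS replicates. In SCVS replicates the neuronal and glial sum was 212 to 1835 CPM, with 1665 CPM in replicate 4 and 1835 CPM in replicate 5. Fibroblast and dural border markers summed to 97.1 to 1644 CPM in naive and 51.4 to 1575 CPM in SCVS mice, mural markers to 791 to 7802 and 457 to 5929 CPM, leukocyte markers to 7.87 to 581 and 142 to 4071 CPM, and erythroid markers to 4.32 to 46.7 and 11.7 to 4863 CPM. These ranges overlapped between the groups in every list. Because each library is a bulk sample, fewer cells of a type and less RNA per cell cannot be told apart.

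A pair of neighboring genes gave very different counts. Robo4 (ENSMUSG00000032125), the endothelial roundabout receptor, was present in every library, whereas Robo3 (ENSMUSG00000032128), a roundabout receptor known from commissural axons, was absent from every naive library. RefSeq places Robo4 on chromosome 9 of GRCm38.p6 from 37401902 to 37414023 on the forward strand and Robo3 from 37416045 to 37433436 on the reverse strand. Their 3′ ends face each other across 2021 bases. The 250 bases before 1 annotated transcript start of each gene are shown because these genes, which lie so close together, gave such different counts. These transcript starts, 37401972 for Robo4 and 37433175 for Robo3, lie 70 and 261 bases inside the outer ends of the genes given above. The window of Robo4 thus reaches into the annotated gene, and that of Robo3 lies wholly inside it. The sequences are printed with GGAA or its reverse complement TTCC, the core of sites for ETS factors, in capitals (RefSeq, GRCm38.p6, 5′ to 3′ on the strand of the gene, Robo4 chr9:37401722-37401971, Robo3 chr9:37433176-37433425).
Robo4: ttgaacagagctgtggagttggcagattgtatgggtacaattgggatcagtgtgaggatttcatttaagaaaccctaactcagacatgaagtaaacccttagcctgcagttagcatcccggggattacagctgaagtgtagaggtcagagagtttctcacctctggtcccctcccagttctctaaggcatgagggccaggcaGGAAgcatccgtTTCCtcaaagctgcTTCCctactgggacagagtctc
Robo3: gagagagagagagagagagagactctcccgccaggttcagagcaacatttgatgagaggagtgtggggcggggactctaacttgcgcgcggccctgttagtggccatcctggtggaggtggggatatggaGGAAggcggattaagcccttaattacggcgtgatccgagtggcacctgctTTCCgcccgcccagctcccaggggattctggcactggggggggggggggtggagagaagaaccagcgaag
The window of Robo4 held 3 such matches and that of Robo3 held 2, where the median of 32851 windows of this length before annotated starts was 3 and 93.4% held at least 1. The longer form CCGGAA, which contains GGAA and was searched on both strands, was in neither window and in 12.0% of all windows. These matches describe letters only.

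Robo4 counts were 2015, 3100, 3091, 3271 and 151 in naive replicates 1 to 5, against 2565, 4177, 1711, 3013 and 646 counts in SCVS replicates 1 to 5. Its level was 182 ± 97.4 CPM (SD, n = 5) in naive replicates, against 191 ± 104 CPM (SD, n = 5) after SCVS. Naive replicate 5 stood far below the others and the remaining values overlapped, so that the fitted log2 fold change of SCVS over naive was 0.00 with a standard error of 0.65. Robo3 had 0 counts in all naive replicates and 98, 505, 146, 104 and 1 counts in SCVS replicates 1 to 5, or 13.6 ± 16.1 CPM (SD, n = 5). With naive libraries taken at the mean of their floors of 3 counts, its mean in SCVS mice was at least 57.7-fold higher. This bound covers counting error only. Every SCVS replicate lay above every naive replicate, although SCVS replicate 5 did so by 1 count, below the floor. Robo3 was the only member whose groups did not overlap, where 0.628% of the tested genes did not, 0.445% with SCVS higher and 0.182% with SCVS lower.

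**Figure D1:**
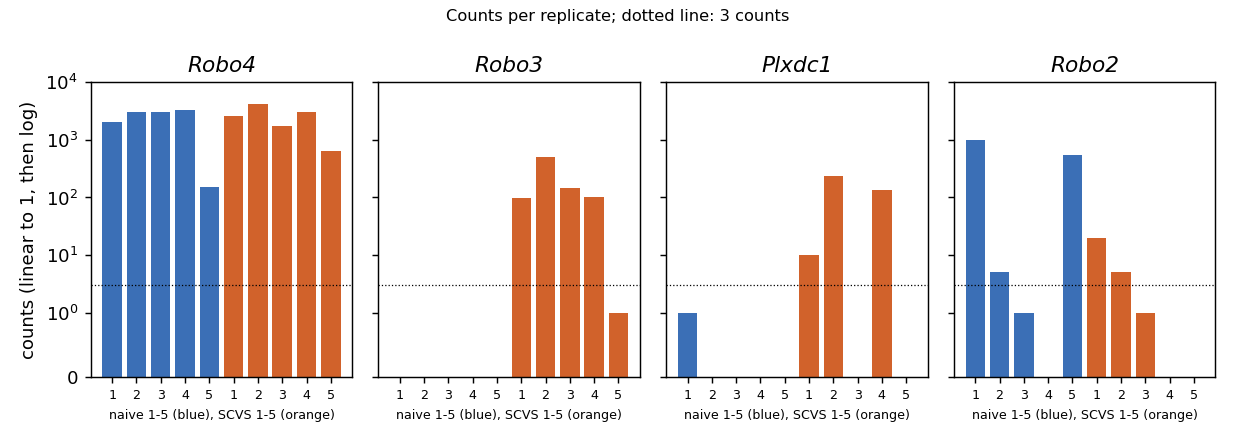
Counts of Robo4, Robo3, Plxdc1 and Robo2 in each replicate (bars; x axis, replicate number, naive in blue and SCVS in orange; y axis, counts, linear from 0 to 1 and logarithmic above; dotted line, the floor of 3 counts). Robo4 is above the floor in all 10 replicates, Robo3 in 4 SCVS and no naive replicates, Plxdc1 in 3 SCVS and no naive replicates, and Robo2 in 3 naive and 2 SCVS replicates.

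To ask whether any guidance gene differed between stressed and naive mice, 1 fit was made over the 14815 genes that exceeded 5 counts in 3 replicates or more, among them 50 of the 71 members. By the quasi-likelihood test of edgeR, adjusted after Benjamini and Hochberg over all tested genes, no member had an adjusted p under 0.1, and 0% of all tested genes did. At an unadjusted p under 0.05 there were 3 members, Robo3 and Plxdc1 higher and Robo2 lower in SCVS mice, against 3.1% of all tested genes (1.93% higher and 1.17% lower). Robo3 and Plxdc1 exceeded 5 counts in no naive replicate and so entered the fit through the SCVS replicates alone, the group in which they were high, and their p-values in any of the tools carry that selection. With no filter on low counts there were 13 members, 10 of them genes that the filter removes, against 16.8% of the genes with a read. Of the 50, 28 had a fitted log2 fold change above 0, as did 48.2% of all tested genes, and the median was 0.17 beside -0.03 over all tested genes. The size of the log2 fold change was over 1 in 19 members (38.0%) and in 31.6% of all tested genes. Robo3 had a log2 fold change of 10.33 (standard error 2.39) and an adjusted p of 0.964 in edgeR. DESeq2 with its default settings gave Robo3 an adjusted p of 4.514e-04 and called no other member, where it called 0.769% of all tested genes. Limma with voom and quality weights called no member, with an adjusted p of 0.461 for Robo3, and called 0.0202% of all tested genes. DESeq2 and limma gave 4 and 2 members with an unadjusted p under 0.05, where the shares of all tested genes were 4.46% and 5.22%.

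**Figure D2:**
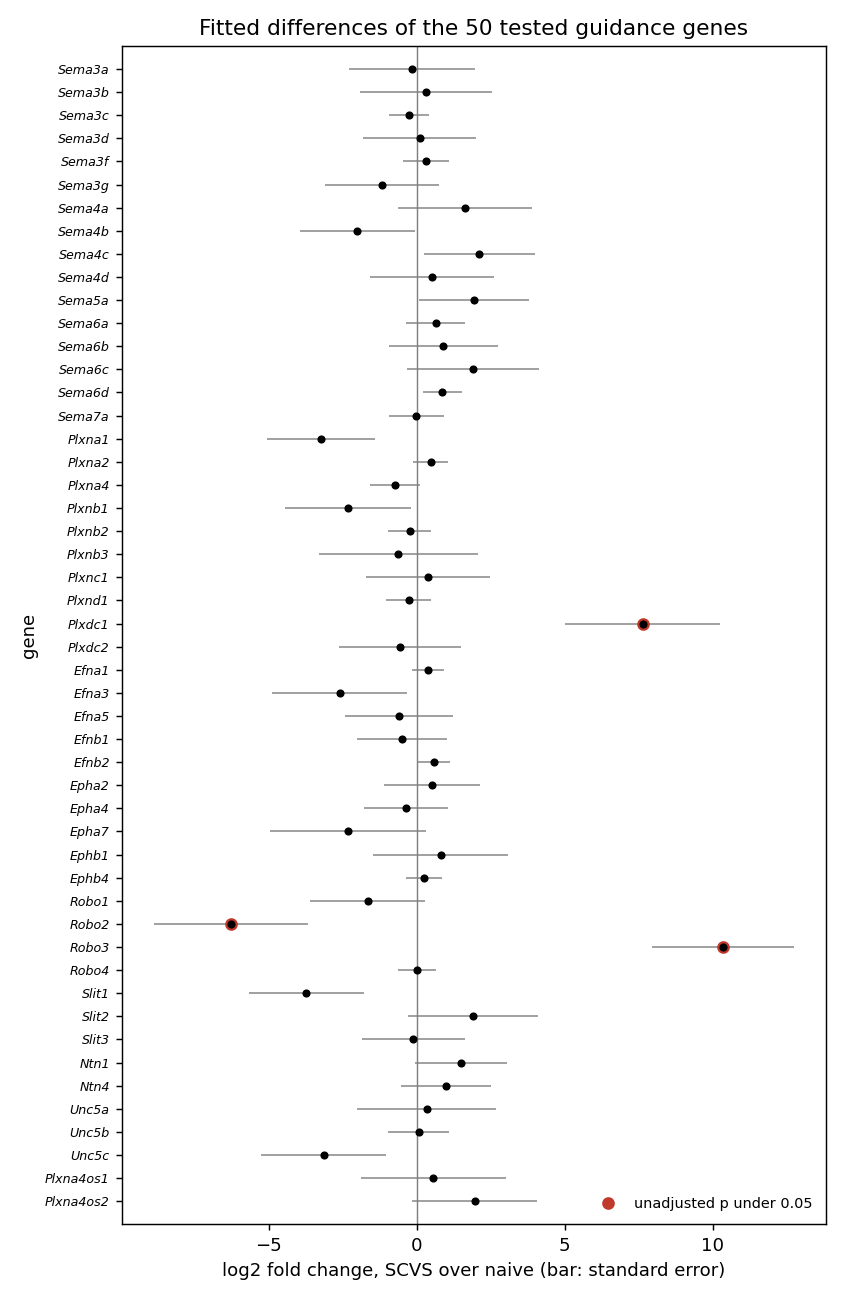
Fitted log2 fold change of SCVS over naive mice (x axis; points, edgeR estimate; bars, standard error) for each of the 50 tested members (y axis, ordered by family). Robo3, Plxdc1 and Robo2, in red, have an unadjusted p under 0.05 and an adjusted p of 0.964 or more, and the bars are short for members found in every replicate, such as Efna1 and Efnb2.

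How widely a member was detected set how well it could be compared. Reads were above the floor in all 10 replicates for 13 members (18.3% of 71, and 26.0% of the 50 tested), beside 38.1% of all tested genes. These 13 were Efna1, Robo4, Sema3c, Ephb4, Sema6d, Efnb2, Plxna2, Sema3f, Plxnb2, Plxna4, Plxnd1, Unc5b and Sema7a, and they held 71.9% of all counts on the members. A further 38 members were above the floor in 3 to 9 replicates and 20 in at most 2, of which 1, Plxna4os3, had no read. For 33 members more than 50% of all counts came from 1 replicate. Of the 50 tested members, 24 (48.0%) were at 0 in some naive library while another naive library held 100 counts or more, beside 34.8% of all tested genes, and 14 (28.0%) did so among the SCVS replicates, beside 32.5%.

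Detection leaned towards SCVS mice. More SCVS than naive replicates were above the floor for 33 of the 71 members, more naive than SCVS replicates for 10, and equal numbers for 28. Among the 50 tested members these were 22 (44.0%), 8 (16%) and 20 (40.0%), beside 29.8%, 19.7% and 50.6% of all tested genes. The 22 include Robo3 and Plxdc1, which passed the filter through SCVS replicates alone. Per replicate, 29 to 44 members were above the floor in naive mice and 38 to 47 in SCVS mice, and these ranges overlapped. The number of all genes with a read moved the same way, 13984 to 15101 in naive and 14174 to 15988 in SCVS replicates, and its part in the detection of the members was not tested. The members summed to 818 to 1899 CPM in naive and 1276 to 2632 CPM in SCVS replicates, and Efna1 was the highest member in all libraries except naive replicate 5, where Plxna4 was.

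**Figure D3:**
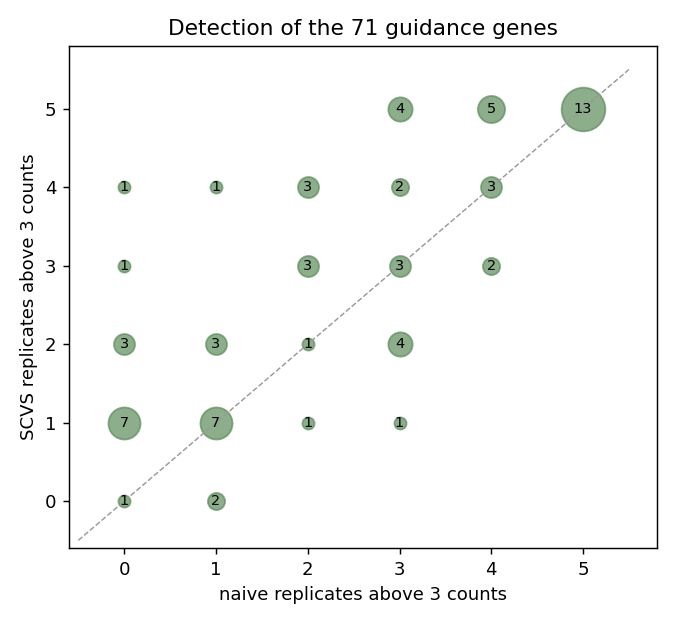
Number of naive replicates (x axis, 0 to 5) and SCVS replicates (y axis, 0 to 5) in which each of the 71 members had more than 3 counts. Circles carry the number of members at that position, and the dashed line marks equal numbers. The 13 members found in every replicate are at the top right, and 33 members lie above the line against 10 below it.

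Among the ligands, the ephrin Efna1 had the highest mean level of all members. Efna1, a ligand of EphA receptors anchored in the membrane by a lipid, had 484, 349, 442, 372 and 29.6 CPM in naive replicates 1 to 5 and 611, 501, 287, 438 and 439 CPM in SCVS replicates. Naive replicate 5 alone was far below the other 9. Its log2 fold change was 0.39 with a standard error of 0.55. Efnb2, the transmembrane ligand of Ephb4, had 78.6, 41.5, 59.7, 56.0 and 23.9 CPM in naive and 111, 158, 52.3, 25.3 and 66.5 CPM in SCVS replicates. The groups of Efnb2 overlapped, and the log2 fold change was 0.58 with a standard error of 0.54. Efnb1, a transmembrane ephrin that also binds EphB receptors, ranged from 0 to 67.2 CPM in naive and from 1.54 to 67.4 CPM in SCVS replicates. Compared per length, as CPM per kilobase of exon, Efna1 had a mean of 216 over the 10 replicates, and Efnb2 had 14.1 and Efnb1 7.11. Efna3 and Efna4, which RefSeq places beside Efna1 on chromosome 3 (Efna1 at 89271730 to 89280951, Efna3 at 89313899 to 89322939, Efna4 at 89333393 to 89338028), had 1.96 and 0.0890 CPM per kilobase. Of the 8 ephrins, 5 were tested, 2 of them higher and 3 lower in SCVS mice by their estimates, and none passed the threshold.

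Ephb4 (ENSMUSG00000029710), the receptor of Efnb2 that marks veins and is also made by LECs, was the only one of 14 Eph receptors found in every replicate. It had 87.9, 117, 99.2, 185 and 13.5 CPM in naive replicates 1 to 5 and 169, 193, 106, 115 and 32.1 CPM in SCVS replicates, with a log2 fold change of 0.23 (standard error 0.61). The lowest value of each group was in replicate 5, and the others overlapped. Epha2, which binds Efna1 and is known in vessel growth, had 0.0960, 9.47, 5.15, 67.5 and 0.0750 CPM in naive and 40.9, 35.5, 0.325, 10.8 and 33.0 CPM in SCVS replicates, and was above the floor in 3 naive and 5 SCVS replicates. Epha4, a receptor of both kinds of ephrin, ranged from 0 to 79.2 CPM in naive and from 0.831 to 40.1 CPM in SCVS replicates. Neither of these groups of values separated naive from SCVS mice. Epha5, best known from neurons, had 1029 counts in naive replicate 5, 33 in SCVS replicate 5 and at most 1 in the others, and was removed by the filter. The remaining Eph receptors that were tested, Epha7 and Ephb1, were each above the floor in at most 5 replicates.

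**Figure D4:**
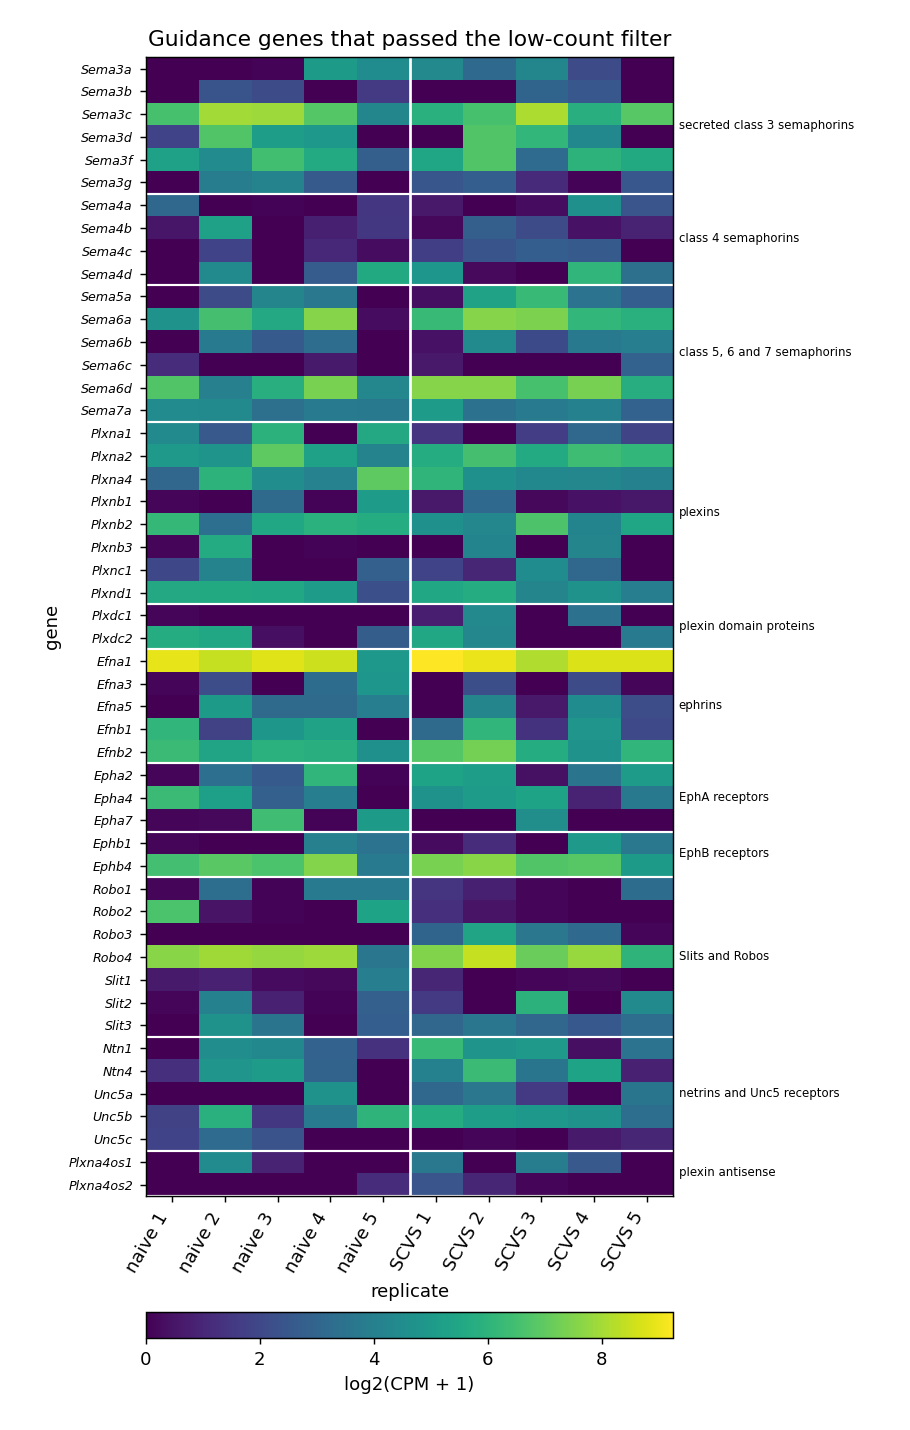
Level of the 50 tested members (rows, ordered by family) in each replicate (columns, 5 naive and 5 SCVS), as log2(CPM + 1) in color from dark purple (0) to yellow. Few rows are bright throughout, among them Efna1, Robo4, Ephb4 and Sema3c, while Robo3 is dark in all naive columns.

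Of the 7 class 3 semaphorins, Sema3c and Sema3f were found in every replicate. Sema3c, a ligand read through neuropilins and Plxnd1, had 92.4, 248, 235, 111 and 17.9 CPM in naive and 58.4, 94.3, 274, 56.2 and 114 CPM in SCVS replicates. Its values overlapped widely, with a log2 fold change of -0.25 and a standard error of 0.67. Sema3f, a ligand of neuropilin-2 known to repel lymphatic and blood endothelium, had 40.6 ± 31.0 CPM (SD, n = 5) in naive replicates, against 53.5 ± 35.7 CPM (SD, n = 5) after SCVS. Sema3a, the ligand of neuropilin-1 known for lymphatic valves, had 0, 0, 1, 439 and 289 counts in naive and 278, 98, 220, 45 and 0 counts in SCVS replicates. Thus 2 naive and 4 SCVS replicates were above the floor, while the means, 10.8 ± 15.3 and 9.81 ± 8.71 CPM (SD, n = 5 each), differed by less than their spread. Sema3d had 0 to 106 CPM in both groups, with 27, 1349, 479, 404 and 0 counts in naive and 0, 1289, 840, 254 and 0 counts in SCVS replicates. Sema3g, a semaphorin of arterial endothelium, ranged from 0 to 230 counts in naive and from 1 to 71 counts in SCVS replicates. Sema3e, the ligand that binds Plxnd1 without a neuropilin, had 454 and 358 counts in SCVS replicates 2 and 3, at most 2 in the other SCVS replicates and at most 4 in naive mice, and was not tested.

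Membrane-bound semaphorins were led by class 6, which bind A-type plexins. Sema6d had 107, 15.3, 55.7, 167 and 18.3 CPM in naive and 188, 192, 94.7, 163 and 53.5 CPM in SCVS replicates. The values of 3 naive replicates (1, 3 and 4) were inside the range of the SCVS values, and the log2 fold change was 0.86 with a standard error of 0.66. Sema6a had 25, 90.6, 46.7, 189 and 0.225 CPM in naive and 75.4, 191, 170, 69.8 and 57.7 CPM in SCVS replicates, and it had 3 counts in naive replicate 5, at the floor. Sema7a, a lipid-anchored semaphorin that signals through Plxnc1 and integrins, had 15.2 ± 4.96 CPM (SD, n = 5) in naive replicates, the smallest spread for its mean among the 13 (coefficient of variation 0.327), against 15.5 ± 10.2 CPM (SD, n = 5) after SCVS. Of the 6 tested genes of classes 5 to 7, 5 had estimates above 0 and 2 exceeded 1 on the log2 scale, and none passed the threshold. Class 4 was detected unevenly: Sema4d, the ligand of B-type plexins and the highest of its class, had 0, 265, 0, 75 and 636 counts in naive and 399, 2, 0, 898 and 98 counts in SCVS replicates.

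Of the 9 plexins, 4 were found in every replicate. Plxnd1, the endothelial plexin, had 46.5, 47.7, 45.0, 33.4 and 3.75 CPM in naive and 45.6, 51.8, 17.6, 25.5 and 14.4 CPM in SCVS replicates, with a log2 fold change of -0.27 (standard error 0.76). Plxna2, a receptor of Sema6a, had 30.4, 26.9, 125, 38.3 and 16.4 CPM in naive and 51.9, 90.7, 49.8, 81.7 and 68.5 CPM in SCVS replicates. All SCVS values lay above 4 of the 5 naive values, but naive replicate 3 was above every SCVS value, and the log2 fold change was 0.47 with a standard error of 0.59. The unadjusted p over all replicates was 0.44 in edgeR. Without naive replicate 3 the log2 fold change was 1.24, but that replicate was singled out by its own Plxna2 value, so the fit without it is no test. Plxna1, which pairs with neuropilin-1 as a receptor of Sema3a, had 214, 64, 843, 0 and 621 counts in naive and 24, 0, 27, 102 and 27 counts in SCVS replicates, or 26.5 ± 26.2 and 2.86 ± 2.89 CPM (SD, n = 5 each). Its log2 fold change was -3.22 with a standard error of 1.83 and an adjusted p of 1.0 in edgeR. Plxnb2, a receptor of class 4 semaphorins, had 47.5 ± 23.2 CPM (SD, n = 5) in naive replicates, against 40.9 ± 35.2 CPM (SD, n = 5) after SCVS. Of the 8 tested plexins, 2 had estimates above 0 and 6 below, with a median of -0.45 and none past the threshold. Plxna4, one of the 6 below 0, overlaps 3 annotated genes on the opposite strand, when genes are taken from end to end with their introns. The use of strand in counting is not stated. Where exons overlap, its reads and those of Plxna4os1 and Plxna4os2 could not be told apart, but overlap of exons was not examined. By the same measure 28 members, 19 of them tested, overlap an annotated gene on the opposite strand, Plxdc1 and Robo2 among them.

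Plxdc1, a plexin domain protein described in tumor endothelium, had 1, 0, 0, 0 and 0 counts in naive and 10, 236, 0, 136 and 0 counts in SCVS replicates. It was above the floor in 3 SCVS and no naive replicates, and its adjusted p was 0.964 in edgeR and 0.368 in DESeq2. With naive libraries taken at the mean of their floors of 3 counts, the mean of Plxdc1 was at least 25.7-fold higher in SCVS mice. This bound covers counting error only, not the loss of a gene from single libraries. Its relative Plxdc2 had 548, 593, 4, 0 and 75 counts in naive and 629, 224, 0, 0 and 126 counts in SCVS replicates, with both groups spanning the same range.

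Robo2, a neuronal roundabout receptor, had 1016, 5, 1, 0 and 537 counts in naive and 20, 5, 1, 0 and 0 counts in SCVS replicates. Nearly all of its counts were in naive replicates 1 and 5, which had the lowest lymphatic and the lowest blood endothelial sum respectively. The log2 fold change was -6.26 (standard error 2.59) over all replicates and 1.23 when these 2 libraries were left out. Leaving out the libraries that held nearly all of its counts had to remove the difference, so the second value is no test. Robo3 had 0 counts in every naive library, so leaving out the same libraries could hardly change its estimate (10.37) and does not test it. Robo1, which binds Slits in endothelium and neurons, was above the floor in 3 naive and 3 SCVS replicates, with at most 12.9 CPM in naive and 8.61 CPM in SCVS replicates. Slit2 ranged from 1 to 203 counts in naive and from 0 to 753 counts in SCVS replicates. Slit3, a ligand linked to vessel growth, had 0, 320, 152, 0 and 77 counts in naive and 104, 139, 90, 64 and 88 counts in SCVS replicates, or 8.34 ± 10.4 and 7.95 ± 2.41 CPM (SD, n = 5 each), so that the SCVS values lay close together within the naive range.

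Unc5b, the vascular netrin receptor, had 2.49, 58.4, 1.86, 13.2 and 63.8 CPM in naive and 51.7, 34.9, 29.5, 25.4 and 9.21 CPM in SCVS replicates. Its log2 fold change was 0.06 with a standard error of 1.02. Ntn1, its ligand, had 0, 285, 268, 88 and 20 counts in naive and 1079, 321, 376, 4 and 104 counts in SCVS replicates, and Ntn4, a netrin of basement membranes, had 15, 350, 461, 91 and 0 counts in naive and 220, 956, 136, 533 and 8 counts in SCVS replicates. The estimates of both netrins were above 0, 1.5 for Ntn1 (standard error 1.55) and 0.99 for Ntn4 (standard error 1.52), and the groups overlapped in each.

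**Figure D5:**
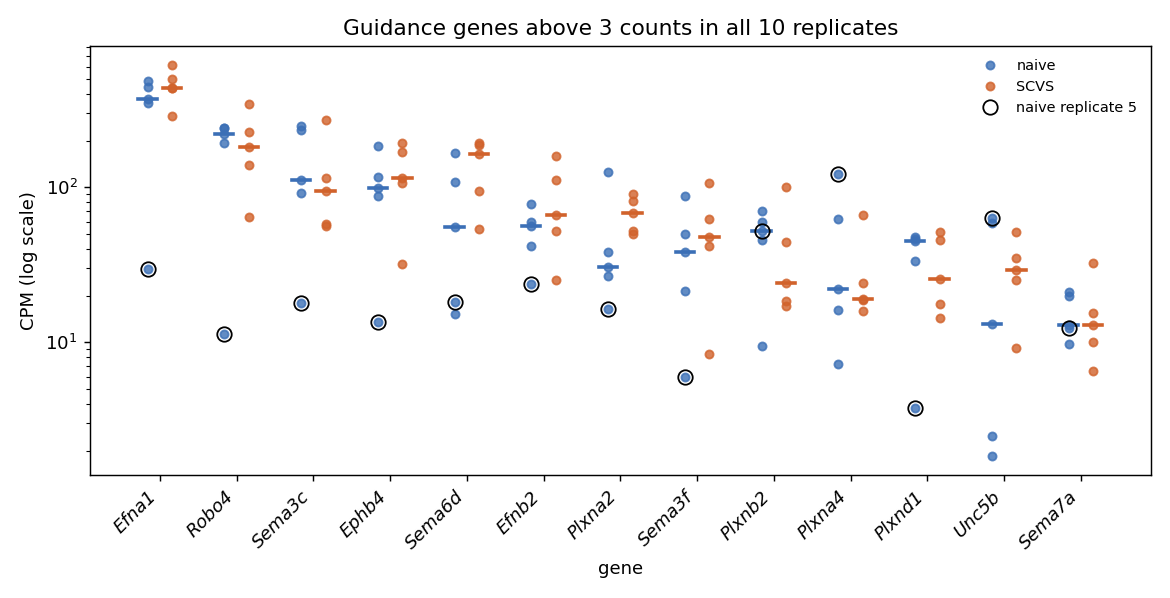
CPM (y axis, log scale) of the 13 members above the floor in all 10 replicates (x axis, ordered by mean CPM), with naive replicates in blue, SCVS replicates in orange, a line at each median and naive replicate 5 circled. The groups overlap for every gene, and naive replicate 5 is the lowest of the 10 for 8 of the 13.

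The 13 members found in every replicate had log2 fold changes between -0.73 and 0.865, with standard errors of 0.54 to 1.02, and none exceeded 1 in size. Naive replicate 5 was the lowest of all 10 replicates for 8 of them, and for 4 it was more than 3-fold below the next. For Plxna4 (123 CPM) and Unc5b (63.8 CPM) it was the highest. Without naive replicate 5 no member had an adjusted p under 0.1 in edgeR, and 0 of all tested genes did. In that fit 3 members had an unadjusted p under 0.05, and the share of all tested genes is not given here, so this count is not read as a result. The other 37 tested members had standard errors of 0.99 to 2.68, and for 3 of them, Robo3, Plxdc1 and Robo2, the estimate exceeded 2 standard errors. Differences of less than several-fold in these 37 were not detectable in these libraries. On the scale of CPM per kilobase of exon, the means over all replicates followed the order Efna1 (216), Robo4 (45.4), Ephb4 (24.1), Sema3c (18.2), Efnb2 (14.1), Sema3f (13.5), Sema6a (10.4) and Sema6d (9.99). The SD over the 10 replicates was 85.3 for Efna1 and 23.2 for Robo4, so that these 2 stood apart by more than their spread, while each later gene in the order lay within 1 SD of the gene before it.

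The 21 members removed by the filter included 8 with at least 100 counts in some replicate. Beside Sema3e and Epha5, these were Sema4f (407 counts in naive replicate 1), Sema4g (152 in naive replicate 5), Efna2 (189 in SCVS replicate 5), Efnb3 (119 in SCVS replicate 3), Epha3 (146 in naive replicate 2 and 197 in SCVS replicate 5) and Ntn3 (283 in SCVS replicate 4). For 11 of the 21, more than 90% of all counts came from 1 replicate. Such members are listed at 0 or near it in most libraries, and they have no value in the filtered fit, while 20 of the 21 were in the fit with no filter.

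Beyond the receptors and ligands, 3 lists of co-receptors and effectors were read from the same fit, with 45 of 50 genes tested. None had an adjusted p under 0.1 or an unadjusted p under 0.05 in edgeR. Of the 19 tested semaphorin co-receptors and effectors, 6 had estimates above 0 and 13 below, with a median of -0.24. Nrp1 and Nrp2, the neuropilins, had 951 ± 514 and 123 ± 75.0 CPM (SD, n = 5) in naive replicates, against 852 ± 432 and 106 ± 46.1 CPM (SD, n = 5) after SCVS, and both had a log2 fold change of -0.24. Of the 13 tested effectors of ephrin signaling, 9 were above 0 and 4 below, with a median of 0.30. Among them the adaptor Nck1 had 278 ± 137 CPM (SD, n = 5) in naive replicates, against 367 ± 63.0 CPM (SD, n = 5) after SCVS. Of the 13 tested effectors of Slits and netrins, 6 were above 0 and 7 below, with a median of -0.21. Dcc, the netrin receptor of axons, had 524 counts in naive replicate 4 and at most 1 in every other replicate.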

How the data were processed

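The authors amplified RNA from sorted cells with a whole-transcriptome kit, sequenced it in pairs and deposited raw counts of reads per gene, with no normalization or filter. Every row names a gene. The submitters' processing notes name cutadapt 1.9.1, HISAT2 2.0.1, HTSeq 0.6.1 and the build GRCm38, whereas the paper's methods name mm9. The annotation used and the strand setting are not given in the sources used here. Of the 55401 identifiers, 32589 (58.8%) are in GENCODE M1 on mm9. Coordinates printed here are those of RefSeq on GRCm38.p6, matched by symbol for 68 of the 71 members. Exon lengths come from GENCODE M1, for 70 members, and may differ from the models that were counted.

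Genes that exceeded 5 counts in 3 or more of the 10 replicates were tested with edgeR 4.0.16 in R 4.3.3 (TMM, quasi-likelihood test, Benjamini-Hochberg over all tested genes, threshold 0.1). The standard error is the absolute log2 fold change divided by the square root of F. CPM used total counts; means carry the SD of 5 replicates. DESeq2 1.42.0, limma 3.58.1 with voom and quality weights, other scalings and filters, a replicate block, a covariate and leaving out replicates were alternatives; leaving out naive replicates 1 and 5 together was chosen after seeing the data. The labels number the replicates 1 to 5 in each group but do not pair them. Replicates are pools of animals; the methods name at least 2 cohorts of mice without saying which replicate came from which, so cohort could not enter a fit, and p-values measure the spread between these pools. Named genes are 22 endothelial and lymphatic guidance genes chosen from textbook knowledge, all members with an unadjusted p under 0.05 or without overlap, the highest member of each class by mean CPM, and members removed by the filter with at least 100 counts in a replicate; other genes named were chosen after their values were seen. Members and lists were chosen with earlier results of these data known. Python 3.11.15 with pandas 2.3.3 and Matplotlib 3.10.9 was used for tables and plots.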

Additional observations from a re-analysis of the deposited data

Results flagged for a closer look

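In groups of 5 replicates, a value was singled out where its gap to the nearest other value exceeded 0.71 of the range of the group (Dixon's test). Of the 80 groups examined, 22 held such a value. Chance gives about 1 in 20 for normally distributed values in groups not chosen by their values, and neither condition holds here. Many of the CPM values are 0, and a group with only 0 cannot be flagged. Of the 22, 13 belong to the 8 members named here because 1 replicate held at least 100 counts although the filter removed them, so that an isolated value was built in. Robo3, Plxdc1, Robo2, Sema3c and Plxna2, which were also flagged, were named by their values too. Among naive replicates, replicate 5 stood low for Robo4 (11.3 CPM) and for the sum of all members (818 CPM) and high for Sema4g (11.4 CPM) and Epha5 (77.2 CPM). Other naive values that stood high were Epha2 in replicate 4 (67.5 CPM), Plxna2 in replicate 3 (125 CPM), Sema4f in replicate 1 (39.1 CPM), Epha3 in replicate 2 (11.4 CPM) and Sema3e in replicate 2 (0.313 CPM). Plxdc1 and Ntn3 had 0.0960 CPM in naive replicate 1, a single count each, and 0 in the other naive replicates. Among SCVS replicates, replicate 5 stood high for Robo1 (8.61 CPM), Efna2 (18.9 CPM), Epha3 (19.7 CPM), Epha5 (3.31 CPM) and Sema4f (0.200 CPM). Robo3 stood high in SCVS replicate 2 (41.5 CPM), Sema3c and Efnb3 in replicate 3 (274 and 9.66 CPM), Ntn3 in replicate 4 (21.4 CPM), and Robo2 and Sema4g in replicate 1 (1.42 and 0.426 CPM). The values of Plxdc1, Sema4f in SCVS mice and Ntn3 in naive mice lie below the floor of 3 counts.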

How the results depend on the processing

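No member had an adjusted p under 0.1 in any edgeR fit or in limma, and DESeq2 called 1, Robo3 (log2 fold change 9.74). Over all tested genes the number called was 0 in every edgeR fit, 3 in limma and 114 in DESeq2. The number of members with an unadjusted p under 0.05, 3 in edgeR, was 13 with no filter, 0 with filterByExpr, which removed Robo3, Plxdc1 and Robo2, and 1 with a replicate block; leaving out 1 replicate gave 2 to 5, the highest without naive replicate 4. The number of members without overlap was 1, 0 with filterByExpr and 1 to 2 when 1 replicate was left out, with Plxna2 beside Robo3 without naive replicate 3, Unc5a without naive replicate 4 and Epha7 without SCVS replicate 3. Leaving out a replicate can only add genes without overlap. For filterByExpr, the replicate block and the fits without 1 replicate, the shares of all tested genes are not given here. The counts under those settings are therefore not results about the members. The median log2 fold change of the members lay between -0.005 and 0.39 when 1 replicate was left out, and was -0.06 without naive replicates 1 and 5. Same-numbered replicates of the 2 groups had correlations of their deviations from the group means of -0.0169 to 0.149. Replicates with unlike numbers had -0.114 to 0.0756, and the highest value, 0.149, belonged to naive and SCVS replicate 5. The labels do not pair the numbers, so the main fit did not pair them and the replicate block was an alternative. Whether same-numbered replicates shared a batch was not tested.

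Of the 30 named members in the fit, 14 kept their direction in every alternative, and 58 of 567 alternative values reversed; the cause was not tested. With the replicate block the log2 fold change was 5.90 for Sema3a, -0.85 for Sema3d, 0.074 for Efnb1, 0.23 for Epha4 and 1.9 for Slit3. In limma it was 2.31 for Sema3a, -2.20 for Sema3d, 0.30 for Efnb1, 0.11 for Epha4, 2.90 for Slit3 and 0.059 for Plxdc2. With the number of detected genes as covariate it was -0.29 for Sema3d, -0.26 for Sema3f, 0.19 for Sema7a, 0.38 for Plxnb2, 0.023 for Epha4 and -0.30 for Robo4, and with total counts only it was 0.036 for Sema7a. Without naive replicates 1 and 5 it was -0.60 for Sema3d, -0.053 for Sema3f, 0.13 for Sema7a, 0.11 for Plxnb2 and -0.21 for Epha2. In the same fit it was 0.23 for Epha4, -0.16 for Ephb4 and -0.34 for Robo4. For Robo2 it was 1.23, which follows from leaving out the libraries that held nearly all of its counts. Leaving out 1 replicate gave ranges of -0.56 to 0.79 for Sema3a, -0.63 to 1.13 for Sema3d, -0.027 to 0.81 for Sema3f, -0.46 to 0.19 for Sema7a, -1.47 to 0.20 for Efnb1, -0.71 to 0.64 for Epha4, -0.041 to 0.55 for Ephb4, -0.43 to 0.86 for Slit3, -0.29 to 0.23 for Robo4, -0.24 to 0.66 for Unc5b, -0.85 to 0.034 for Sema3c, -0.67 to 1.72 for Sema4d and -1.54 to 0.18 for Plxdc2. The depth of the libraries and the spread between replicates limit the members found in few libraries, for which 3 counts or fewer cannot be told from 0.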
